A study of Mus musculus with 4 samples.

Results

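The genes described here are 10 regulators of the ATF4 arm of the cellular stress response, *Atf4*, *Atf5*, *Atf3*, *Ddit3*, *Trib3*, *Chac1*, *Ppp1r15a*, *Cebpb*, *Cebpg* and *Nupr1*, taken by gene symbol from the 18598 genes listed for LSK cells. They were chosen with the comparison of the genotypes already known, so their levels and differences below are a description. Where a regulator is said to be past the thresholds used for all genes, that also only describes it and is no test of it. BPTF is a subunit of the chromatin remodeler NURF, and LSK cells, sorted as lineage-negative, SCA-1 and c-KIT positive bone marrow cells, are enriched for blood stem and progenitor cells. RNA-seq was performed on LSK cells to find the genes whose expression depends on BPTF. There were 2 libraries of *Bptf*-cKO cells and 2 libraries of littermate control cells, each sorted from the pooled marrow of 5 C57BL/6 mice about 3 months old.

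The *Bptf*-cKO mice carried floxed *Bptf* alleles and *Mx1*-cre, and the labels give their genotype as Bptf -/-. The controls carried the floxed alleles without cre (*Bptf* f/f). Deletion was induced with the interferon inducer pIpC, given to both genotypes according to the methods. Cells were sorted 10 days after cre induction. *Mx1*-cre is switched on by interferon and is not limited to blood cells, so cells of the surrounding marrow can also lose the gene, and a control without cre does not show the effect of cre itself. Because each library is a pool, differences between single mice were not measured.

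The integrated stress response begins when a kinase that senses missing amino acids, misfolded protein, missing heme or double-stranded RNA phosphorylates the translation factor eIF2α. General translation then falls while mRNAs with short upstream reading frames, *Atf4* first among them, are translated better, so that the amount of ATF4 protein is set largely after transcription. ATF4 pairs with other basic leucine zipper proteins, among them the C/EBP family, and switches on genes for amino acid supply, for feedback and, when stress lasts, for cell death. Blood stem cells are known to use this pathway, and RNA levels report on its target genes rather than on eIF2α or ATF4 protein.

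Depth ranged from 14091054 to 30134742 reads on listed genes, with 3.36% to 3.40% of the reads on the 10 highest genes of a library. Values are normalized counts, that is, reads divided by a size factor of the library. *Bptf* had 5520 and 5850 normalized counts in control and 3398 and 3320 in *Bptf*-cKO libraries. These counts cover the whole gene and do not separate the deleted exon. The markers that define LSK cells were present, with *Kit* between 13634 and 17051 and the stem cell antigen gene *Ly6a* between 726 and 1743. The replicate 2 libraries of both genotypes stood apart. They carried the female transcript *Xist* at 15675 and 11843 against 0.775 and 3.25 in the replicate 1 libraries, and the pluripotency gene *Pou5f1* at 582 and 738 against 0 and 0. They also held the Y-linked gene *Ddx3y*, at 456 in control and 769 in *Bptf*-cKO, against 1837 and 1835 in the replicate 1 libraries. The Y-linked genes *Kdm5d*, *Uty* and *Eif2s3y* had the same order. The replicate 2 libraries thus held female and male transcripts, in parts that differed between the genotypes. A summed list of 6 neutrophil markers was 44577 in control replicate 1 and 4026 in control replicate 2, against 14064 and 6976 in the *Bptf*-cKO libraries. Summed B cell markers likewise stood at 3866 and 827 in control and 2231 and 1263 in *Bptf*-cKO libraries. Summed erythroid markers followed the genotype, with 679 and 816 in control and 134 and 272 in *Bptf*-cKO libraries. Among them *Hba-a1* did not, with 45.0 and 52.7 in control and 9.75 and 55.0 in *Bptf*-cKO libraries. The part of these cell types in the differences below was not tested. For each regulator and each list median the difference is therefore also given within the replicate 1 libraries and within the replicate 2 libraries. In such bulk samples fewer cells of a type and less RNA per cell cannot be told apart.

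ATF4 is known to bind the C/EBP-ATF response element (CARE), whose core was searched as TGATGNAA on both strands in the 300 bases around each RefSeq start site (250 before and 50 after, GRCm38.p6). All 10 genes had such a window, and 4 of them held a match: *Atf3*, *Chac1*, *Nupr1* and *Trib3*. The same letters occurred in 3.97% of all 32851 windows and in 2.76% of the 10378 tested genes that had a window. A match is a description of the letters and not proof of a bound site. Counted from the start site, the matches began at base -110 in *Atf3* and *Nupr1*, at -193 in *Chac1* and at 15 in *Trib3*. The GENCODE annotation, which places some starts elsewhere, put the *Nupr1* match inside the 5′ UTR of its transcript Nupr1-201 and the other 3 in no exon. The stretches around them, shown because these 4 genes share the element, run 5′ to 3′ in the direction of the gene with the match in capitals. They lie at chr1:191183411-191183468 (minus strand) for *Atf3*, chr2:119351024-119351081 (plus strand) for *Chac1*, chr7:126625562-126625591 (minus strand) for *Nupr1* and chr2:152344028-152344057 (minus strand) for *Trib3*.
Atf3: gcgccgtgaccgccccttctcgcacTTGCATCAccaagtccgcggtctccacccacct
Chac1: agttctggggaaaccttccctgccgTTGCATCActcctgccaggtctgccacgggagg
Nupr1: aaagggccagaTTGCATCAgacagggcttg
Trib3: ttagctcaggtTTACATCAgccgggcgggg
The *Atf3*, *Chac1* and *Nupr1* matches had the same 8 letters, and *Trib3* differed from them.

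A cAMP response element, searched as TGACGTCA, was found in *Ppp1r15a*, beginning at base -12 from its start site, at chr7:45526269-45526305 (minus strand). It occurred in 3.54% of tested genes with a window.
Ppp1r15a: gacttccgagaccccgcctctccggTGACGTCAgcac
An AP-1 site, TGANTCA, was found in *Ddit3* and in 6.21% of tested genes. None of the 10 windows held the endoplasmic reticulum stress element, CCAAT and CCACG separated by 9 bases on either strand, which was in 0.164% of tested genes. The windows of *Atf4*, *Atf5*, *Cebpb* and *Cebpg* held none of these 4 motifs, and no window held more than 1 kind, so no matches of different motifs overlapped.

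Outside the 10 genes, the letters of the CARE were found in 3 of the 10 ATF4 target enzymes with a window (*Asns*, *Pck2* and *Pycr1*), in 2 of 6 amino acid transporters (*Slc1a4* and *Slc7a11*) and in 2 of 9 further ATF4 and CHOP effector genes. They were in 0 of 16 genes of the IRE1 and ATF6 arms of the unfolded protein response, where 7 of 16 held the endoplasmic reticulum stress element instead. The glutamate-cystine exchanger gene *Slc7a11*, at chr3:50443647-50443704 on the minus strand, had 2 matches in 1 stretch, of which the first is in capitals. The proline synthesis gene *Pycr1* is given for comparison, at chr11:120643819-120643876 on the minus strand.
Slc7a11: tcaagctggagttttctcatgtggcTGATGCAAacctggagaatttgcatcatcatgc
Pycr1: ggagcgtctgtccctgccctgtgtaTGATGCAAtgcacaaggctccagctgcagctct
Both genes were higher in *Bptf*-cKO LSK cells, as described with their lists.

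The log2 fold changes of the stress regulators were not all above 0. *Atf5*, *Trib3*, *Chac1*, *Nupr1* and *Ddit3* were 2.60 to 24.4 times higher in *Bptf*-cKO LSK cells, while *Atf4* (log2 fold change 0.26), *Cebpg* (0.67), *Cebpb* (0.78), *Ppp1r15a* (-0.60) and *Atf3* (-1.22) were not past the thresholds set out next, and the groups of *Atf3* and *Cebpb* overlapped. The median log2 fold change of the 10 was 1.08 (1.16 within the replicate 1 libraries and 1.04 within the replicate 2 libraries), against 0.0010 over the 14858 tested genes. Genes were compared with limma on the log2 of the normalized count plus 1, and a gene was called when its Benjamini-Hochberg adjusted p over all tested genes was under 0.05 with a fold change above 1.5. Of the 10 genes, all of which were in the comparison, 5 were past the thresholds as higher, where 55 of all tested genes were (0.370%). With edgeR 5 of the 10 and 49 of all tested genes were past them as higher. With DESeq2 these were 6, *Cebpg* added, and 252. None was past them as lower by limma, where 55 of all tested genes were as well (0.370%), with 0 of the 10 lower at an unadjusted p under 0.05 and 0 by edgeR or DESeq2. *Ppp1r15a* was past them as lower when control replicate 1 was left out. Both *Bptf*-cKO libraries lay above both controls for 7 of the 10, a pattern that 23.2% of tested genes had, and below them for 1 of the 10, a pattern of 23.8% of tested genes. Since the genes were chosen on this contrast, nothing is read from these shares.

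The counts past the thresholds as higher fell when either *Bptf*-cKO library was left out. Of the 10 genes, 1 was past the thresholds as higher without *Bptf*-cKO replicate 1, 2 without *Bptf*-cKO replicate 2 and 3 without either control library, while 1 and 2 genes were called higher over all tested genes without *Bptf*-cKO replicates 1 and 2. In these fits the lone library is assumed to vary like the other group. Without *Bptf*-cKO replicates 1 and 2 the log2 fold changes were 4.58 and 4.63 for *Atf5* and 3.70 and 3.78 for *Trib3*. They were 3.525 and 3.882 for *Chac1*, 2.66 and 2.03 for *Nupr1* and 1.51 and 1.23 for *Ddit3*. With limma's mean-variance trend left out, 1 of the 10 and 2 of all tested genes were past the thresholds as higher.

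**Figure D1:**
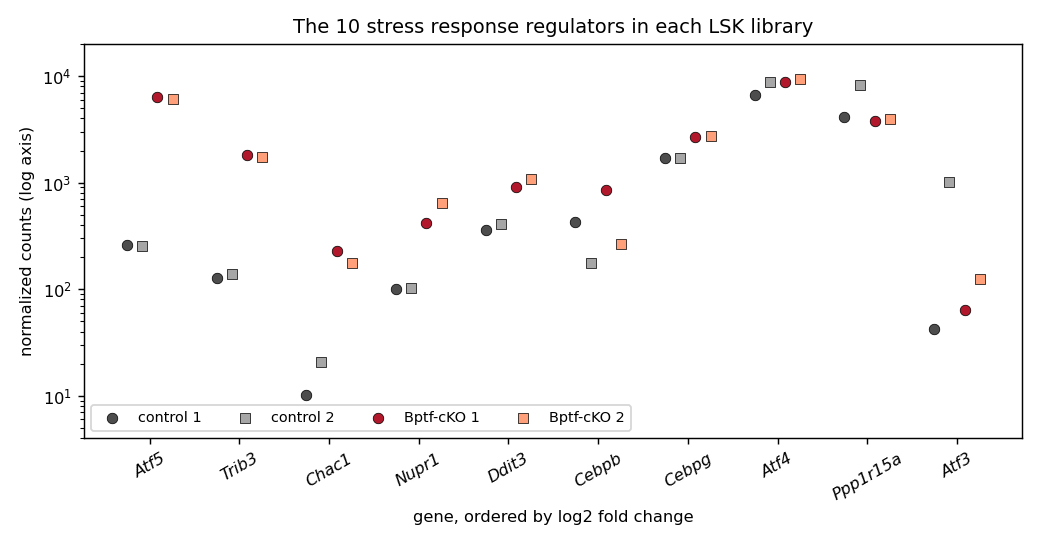
Normalized counts of the 10 regulators in each library on a log axis, ordered by log2 fold change. *Atf5*, *Trib3*, *Chac1*, *Nupr1* and *Ddit3* show both *Bptf*-cKO points above both control points, while the single high control point of *Atf3*, at 1021, stands 24.0 times above the other control.

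*Atf4*, the transcription factor at the head of the pathway, had 6633 and 8840 normalized counts in the control libraries, in the order of their replicate numbers as throughout, and 8852 and 9469 in the *Bptf*-cKO libraries. Its log2 fold change was 0.26 ± 0.16 (limma standard error, here and below, n = 2 per group) and the lower *Bptf*-cKO library lay barely above the higher control. The log2 difference was 0.42 within the replicate 1 libraries and 0.10 within the replicate 2 libraries. Among all tested genes *Atf4* ranked 2835 by size of rise. *Atf4* lies at chr15:80255184-80257541 on the plus strand (GENCODE vM21, GRCm38), where no other annotated gene overlaps it.

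*Atf5*, which encodes a close relative of ATF4 whose mRNA is also translated through upstream reading frames, had 257 and 252 normalized counts in control and 6339 and 6118 in *Bptf*-cKO libraries. The groups were 24.4-fold apart, and the 2 libraries of each group lay within 1.02-fold and 1.04-fold of each other in control and *Bptf*-cKO cells. The log2 fold change was 4.61 ± 0.10, with 4.62 and 4.59 within the replicate 1 and replicate 2 libraries, and *Atf5* ranked 17 by rise. The gene lies at chr7:44812256-44816658 on the minus strand, where 82 of its 1993 exonic bases are shared with *Nup62* and *Il4i1* on the opposite strand. *Nup62* had a log2 fold change of 0.12.

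*Ddit3* encodes CHOP, the partner of ATF4 known for switching on cell death genes under lasting stress. It had 357 and 412 normalized counts in control and 903 and 1092 in *Bptf*-cKO libraries, a 2.60-fold difference in means with no overlap. The log2 fold change was 1.37 ± 0.16, and the replicate 1 and replicate 2 libraries gave 1.34 and 1.41. The gene lies at chr10:127290774-127296288 on the plus strand, where 68 of its 1713 exonic bases are shared with *Mars* on the opposite strand, and others with another annotated gene of the same symbol. The methionyl-tRNA synthetase gene *Mars* itself went from 2232 and 2650 to 4374 and 4862, a log2 fold change of 0.92, and since the strand setting of the counting is not stated, its part in the *Ddit3* count was not tested.

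*Nupr1*, which encodes a small stress-induced chromatin protein, had 101 and 103 normalized counts in control and 418 and 649 in *Bptf*-cKO libraries. The 2 controls were nearly equal and the 2 *Bptf*-cKO libraries were 1.55-fold apart, with all of the latter well above the former. The log2 fold change was 2.35 ± 0.26, with 2.04 within the replicate 1 libraries and 2.65 within the replicate 2 libraries. *Nupr1* lies at chr7:126623249-126630861 on the minus strand.

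*Trib3*, a pseudokinase gene whose product binds ATF4 and CHOP and limits them, had 126 and 139 normalized counts in control and 1833 and 1734 in *Bptf*-cKO libraries. The difference was 13.5-fold, and replicates stayed close in both groups. Its log2 fold change was 3.74 ± 0.14, with 3.85 and 3.64 within the replicate 1 and replicate 2 libraries, and it ranked 31 by rise. *Trib3* lies at chr2:152337422-152344032 on the minus strand.

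*Chac1*, which encodes an enzyme that breaks down glutathione, was the least abundant of the 10 per kb of transcript in control cells, with 10.1 and 20.8 normalized counts. It reached 228 and 178 in the *Bptf*-cKO libraries, 13.2-fold the control mean. The lower control value came from 13 reads, so its counting error is large, and the log2 differences of 4.37 and 3.04 within the replicate 1 and replicate 2 libraries lay further apart than those of *Trib3*. The log2 fold change was 3.70 ± 0.43. *Chac1* lies at chr2:119351229-119354381 on the plus strand.

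*Ppp1r15a* encodes GADD34, the subunit that directs a phosphatase to eIF2α and so ends the response. Unlike the other feedback gene, *Trib3*, it was not higher in *Bptf*-cKO cells. It had 4100 and 8294 normalized counts in control and 3759 and 3946 in *Bptf*-cKO libraries, so control replicate 2 was 2.02-fold above control replicate 1. Both *Bptf*-cKO libraries lay below both controls, with a log2 fold change of -0.60 ± 0.32 that did not pass the thresholds. The difference was -0.13 within the replicate 1 libraries and -1.07 within the replicate 2 libraries. It was -0.090 without control replicate 2 and -1.11, past the thresholds, without control replicate 1. The gene lies at chr7:45522916-45526268 on the minus strand.

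*Atf3*, a stress-induced factor that is also known as an immediate-early gene, had 42.6 normalized counts in control replicate 1 and 1021 in control replicate 2, against 64.3 and 124 in the *Bptf*-cKO libraries. Both *Bptf*-cKO libraries lay between the controls. The log2 fold change of -1.22 had a standard error of 1.44, and the sign turned with 1 library: the difference was 0.58 within the replicate 1 libraries and -3.03 within the replicate 2 libraries, 1.05 without control replicate 2 and -3.50 without control replicate 1. In reads these were 55, 737, 99 and 88, so counting error was small beside the spread between the controls. *Atf3* lies at chr1:191170296-191218039 on the minus strand.

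**Figure D2:**
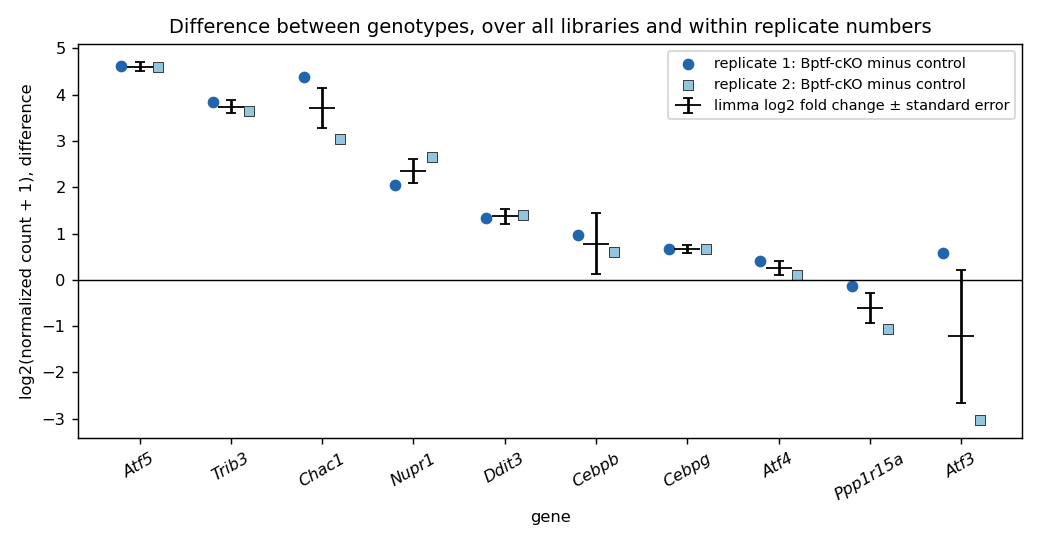
Log2 difference of each regulator, *Bptf*-cKO minus control, from limma with its standard error (black) and within the replicate 1 (circles) and replicate 2 libraries (squares). The points of *Atf5*, *Cebpg* and *Ddit3* nearly coincide, and those of *Atf3*, at 0.58 and -3.03, lie on opposite sides of 0.

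*Cebpg*, a C/EBP protein that pairs with ATF4, had 1711 and 1702 normalized counts in control and 2705 and 2713 in *Bptf*-cKO libraries. Replicates were nearly equal in each group, 1.01-fold apart in control and 1.00-fold in *Bptf*-cKO cells. The means were 1.59-fold apart, with a log2 fold change of 0.67 ± 0.091 (0.66 and 0.67 within the replicate 1 and replicate 2 libraries), which did not pass the thresholds with limma. With DESeq2 on recovered reads it was 0.67 as well and past them as higher. *Ddit3* had the smallest log2 fold change of the regulators past the thresholds, and the next values, 0.78 of *Cebpb* and 0.67 of *Cebpg*, belonged to genes that were not. *Cebpg* lies at chr7:35046422-35056573 on the minus strand.

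*Cebpb*, a C/EBP factor with roles in both stress and granulocyte formation, had 431 and 175 normalized counts in control and 848 and 264 in *Bptf*-cKO replicates 1 and 2. The groups overlapped, and the replicate 1 library was higher in both genotypes, 2.47-fold in control and 3.21-fold in *Bptf*-cKO. The log2 fold change was 0.78 ± 0.67, with 0.98 and 0.59 within the replicate 1 and replicate 2 libraries. It was -0.057 without *Bptf*-cKO replicate 1 and 1.62 without *Bptf*-cKO replicate 2, and 1.43 and 0.13 without control replicates 1 and 2. The summed neutrophil markers, at 44577 and 4026 in control and 14064 and 6976 in *Bptf*-cKO libraries, were likewise higher in the replicate 1 library of both genotypes, and their part in the *Cebpb* values was not tested. *Cebpb* lies at chr2:167688915-167690418 on the plus strand, and 312 of its 1504 bases are shared with *Tmem189* on the opposite strand, which had a log2 fold change of 0.063.

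To compare levels between genes, normalized counts were divided by the length of the longest complete coding transcript of each gene. In control cells *Atf4* was the most abundant at 4485 ± 904 normalized counts per kb (SD, n = 2, here and below), followed by *Ppp1r15a* at 2206 ± 1056, *Ddit3* at 432 ± 43.8 and *Cebpg* at 362 ± 1.43. Next came *Atf3* at 268 ± 349, *Cebpb* at 201 ± 121, *Atf5* at 140 ± 1.98, *Nupr1* at 123 ± 1.53 and *Trib3* at 65.4 ± 4.28, and *Chac1* was lowest at 9.43 ± 4.63. The control libraries of *Atf3*, at 21.5 and 515 per kb, overlapped those of *Ddit3*, *Cebpg*, *Cebpb*, *Atf5*, *Nupr1* and *Trib3*, and those of *Cebpb* overlapped *Atf5* and *Nupr1* too, so their order is not resolved. In *Bptf*-cKO cells *Atf4* still led at 5310 ± 253, and *Atf5* was second at 3430 ± 86.2. *Ppp1r15a* followed at 1372 ± 47.1, *Ddit3* at 1121 ± 150, *Trib3* at 880 ± 34.5, *Nupr1* at 644 ± 197, *Cebpg* at 575 ± 1.24, *Cebpb* at 370 ± 275 and *Chac1* at 124 ± 21.7. *Atf3* was lowest at 47.5 ± 21.3. In these libraries *Nupr1* overlapped *Cebpg* and *Cebpb*, and no other pair of the 10 overlapped.

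Per kb, *Atf4* had 32.0 times the level of *Atf5* in control cells and 1.55 times in *Bptf*-cKO cells. *Atf4* made up 54.1% of the summed level of the 10 genes per kb in control and 38.3% in *Bptf*-cKO cells, while *Atf5* went from 1.69% to 24.7%. The order depends on the length used: with the length of all exons of a gene combined, *Ddit3* ranked 5 in place of 3 in control cells and *Nupr1* 8 in place of 6 in *Bptf*-cKO cells, while *Atf4* ranked 1 in both and *Atf5* 2 in *Bptf*-cKO cells. The sum of the 10 genes in normalized counts, without division by length, was 13770 and 20957 in control and 25949 and 26287 in *Bptf*-cKO libraries.

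**Figure D3:**
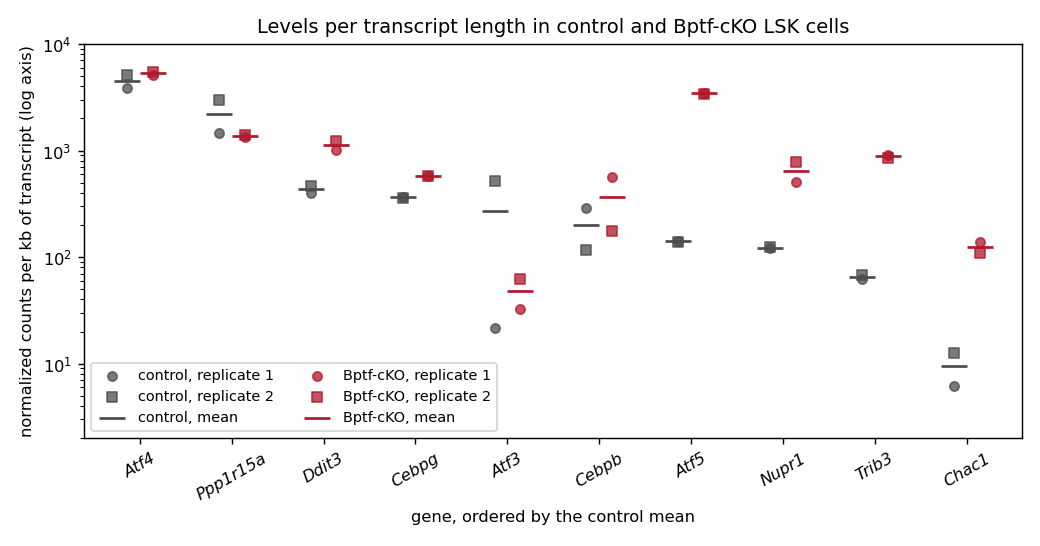
Normalized counts per kb of transcript on a log axis for each regulator, with points for libraries and bars for group means, in the order of the control mean. *Atf5* moves from 140 in control to 3430 in *Bptf*-cKO cells, second to *Atf4* at 5310.

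Upstream start codons are the feature through which *Atf4* mRNA is known to escape the block of translation, and they were counted as ATG triplets in the annotated 5′ UTR of the same transcripts. *Ppp1r15a* had 7, *Atf4* 3, *Atf5* and *Ddit3* 2 each, *Atf3*, *Cebpg* and *Nupr1* 1 each, and *Trib3*, *Chac1* and *Cebpb* 0. Thus 7 of the 10 had at least 1 and 4 had at least 2, where 53.6% and 31.6% of 12284 tested genes did. The feature did not separate the genes by their RNA: *Ppp1r15a*, with 7, had a log2 fold change of -0.60, and *Trib3* and *Chac1*, with 0, had 3.74 and 3.70. The counts were not adjusted for the length of the 5′ UTR, whose median over these tested genes was 189 bases. It was 764 in *Ppp1r15a*, 594 in *Atf4*, 373 in *Atf5*, 294 in *Cebpg*, 252 in *Atf3* and 242 in *Nupr1*. *Ddit3* had 186, *Trib3* 176, *Chac1* 174 and *Cebpb* 107.

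ATF4 is known to act on enzymes and carriers that supply amino acids, and the lists below group such genes by function. They were put together with earlier results of these data known, so their counts are not independent evidence. Of 12 enzymes of amino acid synthesis and one-carbon metabolism, 5 were called higher and 0 lower, with a median log2 fold change of 1.83 (1.98 and 1.63 within the replicate 1 and replicate 2 libraries) and a range of 0.73 to 7.70, where the median over all tested genes was 0.0010. The mitochondrial folate enzyme *Aldh1l2* went from 5.43 and 4.16 to 1096 and 1305 (log2 fold change 7.70, limma adjusted p = 0.00344). Asparagine synthetase, *Asns*, went from 582 and 737 to 3846 and 4848 (2.72, limma adjusted p = 0.0132), and *Pycr1* from 100 and 114 to 571 and 731 (2.59, limma adjusted p = 0.0204). *Mthfd2* and *Shmt2*, which feed the mitochondrial folate cycle, were the other two called. The count was 6 and 7 without control replicates 1 and 2 and 0 without either *Bptf*-cKO library.

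Of 9 amino acid transporter genes, 7 were called higher and 0 lower, with a median of 1.72 (1.72 and 1.73 within the replicate 1 and replicate 2 libraries) and a range of 0.28 to 6.20. *Slc7a11* went from 15.5 and 19.4 to 385 and 467 (4.53, limma adjusted p = 0.0118), and the glycine transporter gene *Slc6a9* from 46.5 and 52.7 to 686 and 680 (3.76, limma adjusted p = 0.00944). The arginine and lysine transporter gene *Slc7a3* went from 4.65 and 8.32 to 459 and 618 (6.20, limma adjusted p = 0.0118), the largest change of the list. The count was 7 without either control library and 0 without either *Bptf*-cKO library.

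Of 14 further effector genes of ATF4 and CHOP, 13 were tested, 5 were called higher and 0 lower, and the median was 1.02 (1.01 and 1.03 within the replicate 1 and replicate 2 libraries) with a range of 0.37 to 6.12. The stanniocalcin gene *Stc2* went from 10.9 and 6.93 to 618 and 734 (6.12, limma adjusted p = 0.00944). *Sesn2*, which restrains the growth kinase mTORC1, went from 364 and 362 to 1406 and 1781 (2.12, limma adjusted p = 0.0204), and the angiogenic factor gene *Vegfa* from 550 and 478 to 1561 and 1401 (1.53, limma adjusted p = 0.0226). *Ero1l*, an oxidase of the endoplasmic reticulum, and the translation repressor gene *Eif4ebp1* were also called. The cell death genes *Bbc3*, *Pmaip1* and *Bcl2l11* of this list had log2 fold changes of 1.38, 0.98 and 0.61 and did not pass (limma adjusted p = 0.0915, 0.228 and 0.550). The part of CHOP or of other regulators in these values was not tested. The count of the list was 4 without either control library and 0 without either *Bptf*-cKO library. All 34 tested genes of these 3 lists had a log2 fold change above 0 and were higher within the replicate 1 and within the replicate 2 libraries, where 50.2% of all tested genes were above 0 and 34.5% were higher within both. The lists were put together with earlier results known, so nothing is read from this contrast.

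For the upstream part of the pathway no gene passed the thresholds. Of 13 genes for the eIF2α kinases and the control of eIF2, 0 were called by limma, edgeR or DESeq2, and 2 had an unadjusted limma p under 0.05, 1 higher and 1 lower. The median log2 fold change was 0.045 (0.11 and -0.033 within the replicate 1 and replicate 2 libraries) and the range -0.29 to 0.37. *Eif2s1*, which encodes eIF2α, had 0.37 (limma adjusted p = 0.217), the RNA-sensing kinase gene *Eif2ak2* -0.29 (limma adjusted p = 0.283) and the amino acid sensing kinase gene *Eif2ak4* -0.26 (limma adjusted p = 0.330). *Ppp1r15b*, the constitutive counterpart of *Ppp1r15a*, had 0.10.

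The other arms of the unfolded protein response were measured by their own targets and sensors. Of 19 genes of the IRE1 and ATF6 arms, 1 was called higher, *Sel1l* of the degradation machinery (0.80, limma adjusted p = 0.0453), and 0 lower, and this 1 call was lost when any 1 of the 4 libraries was left out and with edgeR. The median was 0.26 (0.26 and 0.30 within the replicate 1 and replicate 2 libraries) and the range -0.45 to 0.80. Of the 19, 16 had a log2 fold change above 0, where 50.2% of all tested genes did. Within both replicate numbers 14 were higher, where 34.5% of all tested genes were, and 1 was lower. An unadjusted limma p under 0.05 was reached by 7, all higher, and by 2340 of the 14858 tested genes in either direction. The IRE1α gene *Ern1* had 0.77 (limma adjusted p = 0.0778) and the chaperone gene *Hyou1* 0.54 (limma adjusted p = 0.0984). *Hspa5*, the classic chaperone of this response, had -0.15 (limma adjusted p = 0.906), with controls of 13472 and 30574 normalized counts, 2.27-fold apart. Its *Bptf*-cKO libraries, at 16481 and 20291, lay between them. The *Hspa5* difference was 0.29 within the replicate 1 and -0.59 within the replicate 2 libraries. Of 7 mitochondrial stress genes, 0 were called by limma or edgeR and 1 by DESeq2, 4 had an unadjusted limma p under 0.05, all higher, and the median was 0.31 (0.35 and 0.27 within the replicate 1 and replicate 2 libraries). The mitochondrial chaperone gene *Hspa9* had 0.79 (limma adjusted p = 0.0618), *Dnaja3* 0.51 (limma adjusted p = 0.220) and *Lonp1* 0.36 (limma adjusted p = 0.247).

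**Figure D4:**
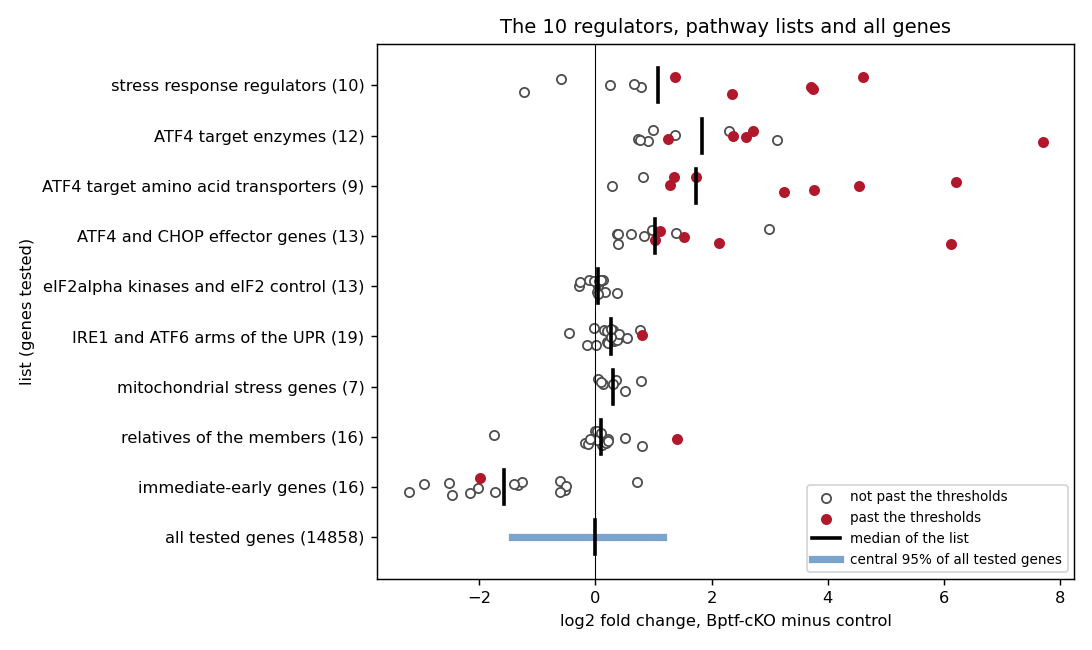
Log2 fold changes of the 10 regulators and of each list, with open points for genes not past the thresholds, filled points for those past them and a bar for the median, above the central 95% of all tested genes (-1.44 to 1.17). The enzyme, transporter and effector lists lie to the right of 0, with medians of 1.83, 1.72 and 1.02, and the eIF2 list clusters at 0.045.

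Relatives of the 10 genes by family were measured next to them. Of 17 relatives (ATF, CREB, BATF, C/EBP, Tribbles and CHAC genes), 16 were tested, 1 was called higher and 0 lower, and the median was 0.10 (0.039 and 0.16 within the replicate 1 and replicate 2 libraries). The called gene was the AP-1 family repressor gene *Jdp2*, which went from 474 and 416 to 1211 and 1140 (1.40, limma adjusted p = 0.0261). It was not called without control replicate 2 or without either *Bptf*-cKO library. *Jdp2* was also the 1 relative of 12 with a window whose window held the letters of the CARE. *Trib2* had -1.74 (limma adjusted p = 0.231) against 3.74 of *Trib3*, *Chac2* -0.093 against 3.70 of *Chac1*, and *Cebpa* 0.80 (limma adjusted p = 0.587) from 1305, 407, 1696 and 947 normalized counts, higher in the replicate 1 library of both genotypes as *Cebpb* was.

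*Atf3* and *Ppp1r15a*, the 2 regulators with a log2 fold change below 0, were 24.0-fold and 2.02-fold higher in control replicate 2 than in control replicate 1, and they were set beside 16 immediate-early genes, which answer within minutes to handling, growth factors and stress. Of the 16, 14 were higher in control replicate 2 than in control replicate 1 and 10 more than 1.5-fold higher, where 50.3% and 9.12% of all tested genes were. The median of the list was 2.21-fold and that of all tested genes 1.00-fold. The sum of the list was 86708 and 212784 in control and 31305 and 35773 in *Bptf*-cKO libraries, so both controls exceeded both *Bptf*-cKO libraries. The median log2 fold change was -1.57, with -1.30 within the replicate 1 libraries and -2.33 within the replicate 2 libraries, and -1.18 without control replicate 2.

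Of the immediate-early genes, 1 was called lower and 0 higher. *Zfp36*, which encodes an mRNA decay factor, went from 10453 and 15449 to 3573 and 2853 (-1.99, limma adjusted p = 0.0368). *Klf2* had -3.21 (limma adjusted p = 0.181) and *Fosb* -2.95 (limma adjusted p = 0.132). The count was 10 without control replicate 1, 5 without control replicate 2 and 0 without either *Bptf*-cKO library. *Ppp1r15a* lay below both controls as 14 of the 16 did, while *Atf3* did not, since control replicate 1 held its lowest value. The part of the immediate-early level in the *Atf3* and *Ppp1r15a* values was not tested.

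**Figure D5:**
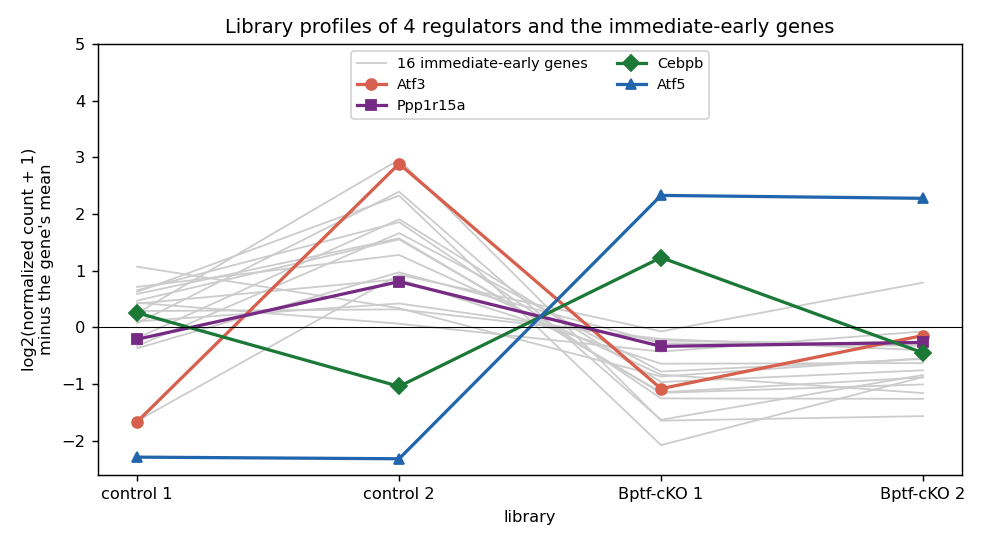
Centred library profiles, log2 of the normalized count plus 1 minus the gene's mean over the 4 libraries, of *Atf3*, *Ppp1r15a*, *Cebpb* and *Atf5* over those of the 16 immediate-early genes (grey). *Atf3* and *Ppp1r15a* peak in control replicate 2, *Cebpb* is high in the replicate 1 library of each genotype, and *Atf5* separates the genotypes.

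For each regulator the 3 genes with the nearest centred profile over the 4 libraries were found among 10805 other genes with a mean of at least 100, by Euclidean distance. With 4 libraries many profiles look alike, so the names are a description. *Atf5* was nearest to *Slc7a11* (distance 0.339), *Slc6a9* and *Hsd17b1*. *Trib3* was nearest to *Slc6a9* (0.0597), *Hsd17b1* and *Zmat3*, and *Chac1* to *Slc6a9* (0.619), *Slc1a4* and *Gdf15*. *Nupr1* was nearest to *Glrp1* (0.186), *Sesn2* and *Pycr1*. *Ddit3* was nearest to the seryl-tRNA synthetase gene *Sars* (0.0740), *Inpp4b* and *Dubr*. The nearest profiles of *Atf5*, *Trib3*, *Chac1* and *Nupr1* included genes of the transporter, enzyme and effector lists. The profiles were not scaled, so genes with a large difference between the genotypes lie near each other. The regulators and lists were chosen with earlier results known, so no link between them is read from these neighbours.

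The profiles of the other regulators lay elsewhere. *Atf3* had no close neighbour, the nearest being *Myl10* at 1.33, followed by *Gm14508* and the immediate-early gene *Klf6*. *Ppp1r15a* was nearest to *9330182L06Rik* (0.116), *Myh10* and *Rbfox2*, and *Cebpb* to *Btbd11* (0.553), *Ly6d* and *Bmf*. *Cebpg* was nearest to *Synpo2* (0.0210), *Lrrc28* and *Dock5*, and *Atf4* to *Unc5a* (0.0226), *Zbtb40* and *Nop58*. Among the 10 themselves, *Atf4* and *Cebpg* were the closest (0.510), followed by *Trib3* and *Chac1* (0.629), and *Atf3* was the furthest from its nearest, *Ppp1r15a* (2.65).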

How the data were processed

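RNA-seq was deposited for 4 LSK libraries. Per the labels' processing notes, the submitters used HISAT2, featureCounts and DESeq2 with GRCm38 (mm10), and versions, annotation and strand setting are not given in the sources used here. The authors deposited a signal for each library, gene counts divided by a size factor. Columns of the authors' own comparison (fold change, standard error, test statistic, p-values) and the overall mean were not used. Divided by what 1 read was worth in its library, 100% of the values came out whole within 0.05, so reads were recovered. The lowest total of a listed gene was 11 reads.

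Normalized counts of genes with a mean of at least 10 (14858) were compared as log2(value + 1), which understates changes of low genes, with limma 3.58.1 (trend, genotype as the only term, two-sided, Benjamini-Hochberg) in R 4.3.3. Thresholds followed the study. edgeR 4.0.16 and DESeq2 1.42.0 were run on recovered reads. The fits were tested on simulated data. An exact permutation test with 2 libraries per group cannot give a p below 0.333. The labels' replicates are separate pools of mice. The standard errors and p-values of limma rest on the spread between pools of a group, moderated toward that of genes with a similar mean. They are thus not a gene's own spread between these 4 pools alone. Columns headed as wild type were taken as the control samples.

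The regulators and lists were chosen with earlier results of these data known. Named genes were the 10 regulators, up to 3 per list (called genes with the largest change first, then the largest change), genes used to check libraries and the 3 genes nearest in profile to each regulator. Others (remaining called genes, *Bbc3*, *Pmaip1*, *Bcl2l11*, *Hspa5*, *Ppp1r15b*, *Chac2*, *Mars*, *Nup62* and *Tmem189*) were added after their values were seen. T-cell markers were not analysed here. Loci, lengths and 5′ UTRs came from GENCODE vM21 and promoter windows from RefSeq (GRCm38.p6). Python 3.11.15, pandas 2.3.3, numpy 2.4.6 and matplotlib 3.10.9 were used.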

Additional observations from a re-analysis of the deposited data

How the results depend on the processing

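Over all tested genes, 55 called higher and 55 lower became 2 and 0 in limma without the trend, 252 and 446 with DESeq2, and 1 to 78 and 0 to 45 with 1 library left out. The 5 regulators past the thresholds, all higher, became 1 without the trend and 1 to 4 with a library left out, where the 4, without control replicate 1, were 3 higher and *Ppp1r15a* lower. Among lists, the enzymes (5 called) had 1 without the trend, 12 with DESeq2 and 0 to 7 with a library left out. The transporters (7) had 0 without the trend and 0 to 7 with a library left out, and the effectors (5) had 0, 8 with DESeq2 and 0 to 4. The IRE1 and ATF6 genes (1) had 0 without the trend, 0 with edgeR, 2 with DESeq2 and 0 to 0, the mitochondrial genes (0) had 1 with DESeq2, the relatives (1) had 0 without the trend, 2 with DESeq2 and 0 to 1, and the immediate-early genes (1) had 0 without the trend, 9 with DESeq2 and 0 to 10. With DESeq2 6 regulators were past the thresholds as higher, *Cebpg* added, and 8 transporters were called. With only genes of a mean of at least 50 kept, 4 regulators were past them as higher, and *Chac1* was no longer among them. The labels do not say what libraries with the same replicate number share, but their deviations from the group means correlated (0.452 over 14858 genes). With the replicate number as a block, limma called 454 genes higher and 845 lower. It called 8 regulators (*Cebpb* and *Cebpg* added as higher and *Ppp1r15a* as lower), 12 enzymes, 8 transporters and 9 effectors. It also called 2 IRE1 and ATF6 genes, 1 mitochondrial gene, 3 relatives and 12 immediate-early genes. Each group held 2 pools, and counting error adds to the spread of genes with few control reads, with lowest counts of 13 in *Chac1*, 6 in *Slc7a3*, 5 in *Stc2* and 3 in *Aldh1l2*.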
